A study of Homo sapiens with 6 samples.

Results

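The genes described here are 7 genes of nuclear RNA bodies, measured in a breast cancer line 2 h after a compound was added: the long noncoding RNAs NEAT1 and MALAT1, and the protein genes NONO, SFPQ, PSPC1, RBM14 and TARDBP. They were taken by symbol from a table of 27451 gene rows, and 12294 of those rows, with 6-library means of 1 TPM or more, were fitted. TPM, in full transcripts per 1000000, is a transcript's share of a library after division by its length. The 7 symbols had 9 rows, and 8 of these reached a mean of 1 TPM. For MALAT1 and TARDBP, which had 2 rows each, the row with the higher mean was used. The second MALAT1 row was listed at 0 in every library. The second TARDBP row, between 0.46 and 1.99 TPM, is annotated as another protein-coding gene that overlaps TARDBP on the same strand. The genes were chosen with their TPM in the compared groups known, so their values in this contrast are given as a description, without a test.

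The treated cells, MDA-MB-231, a long established human line of breast cancer origin, were given 2 µM of H182 for 2 h (3 libraries). H182 is a code-named compound, listed with Stat3 inhibitors in the title of the series. The control cells were the same line given DMSO, the vehicle (3 libraries). All libraries were poly-A selected from total RNA of a single line, and the labels do not say whether replicates came from separate cultures. P-values therefore reflect only how these libraries vary, and that variation may be technical.

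Most listed markers of the line were as its name implies. ERBB2, listed as absent or low, lay between 24.9 and 27.0 TPM in H182 and between 26.2 and 29.4 TPM in DMSO. VIM lay between 3429.8 and 3701 TPM in H182 and between 4002 and 4051 TPM in DMSO, and ESR1 did not exceed 0.06 TPM in any library. No library stood apart: pairwise r over fitted genes was 0.9928 to 0.9942 within a group and 0.9787 to 0.9806 across groups. Summed markers of blood cells (5 markers) were at 1.24 to 2.60 TPM in H182 and 2.17 to 2.42 TPM in DMSO, of endothelial cells (3 markers) at 0.06 to 0.14 TPM in H182 and 0.21 to 0.51 TPM in DMSO, and of fibroblasts (4 markers) at 7.53 to 8.53 TPM in H182 and 7.23 to 8.29 TPM in DMSO. The fibroblast sum was nearly all COL1A1, at 7.16 to 8.37 TPM in H182 and 6.81 to 8.03 TPM in DMSO. HBB was at 0 in every library. TPM keeps no read number, and depth is therefore unknown.

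Paraspeckles are nuclear bodies that assemble on NEAT1 RNA as it is transcribed. NEAT1 has a short polyadenylated form and a long form, and it is the long form that builds the body. NONO, SFPQ and PSPC1, the DBHS family of RNA-binding proteins, coat the RNA. RBM14 is needed for assembly, and TDP-43, the product of TARDBP, favours the short form of NEAT1. MALAT1, the neighbour of NEAT1, gathers at nuclear speckles, which store splicing factors. Paraspeckles are known to grow under several kinds of cell stress.

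The ends of these RNAs are shown because they bear on what a poly-A library can capture. The short form of NEAT1 carries a standard polyadenylation signal. The long form and MALAT1 lack a poly-A tail: their ends are cut free by RNase P upstream of a tRNA-like RNA and are protected by a triple helix of U-rich and A-rich stretches encoded in the gene. Sequences are from the GENCODE 29 transcripts of GRCh38, plus strand, 5′ to 3′, with T for U. Capitals mark the AATAAA signal in the short NEAT1 form, a U-rich stretch and the A-rich end in the long NEAT1 form, and both U-rich stretches and the A-rich tract in MALAT1.
NEAT1 short form, last 60 bases, chr11:65426454-65426513: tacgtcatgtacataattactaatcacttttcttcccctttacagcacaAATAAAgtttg
NEAT1 long form, last 100 bases, chr11:65445441-65445540: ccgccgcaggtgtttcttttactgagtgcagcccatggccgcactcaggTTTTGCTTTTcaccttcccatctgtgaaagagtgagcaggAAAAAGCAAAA
MALAT1, 98 bases up to the triple helix end, chr11:65506019-65506116: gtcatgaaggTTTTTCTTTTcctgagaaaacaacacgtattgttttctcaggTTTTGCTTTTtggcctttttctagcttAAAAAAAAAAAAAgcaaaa
The marked U-rich stretch of the long NEAT1 form is the same as the second of MALAT1. An earlier T-rich stretch in the printed NEAT1 bases is not marked. The marked A-rich tract of MALAT1 runs for 13 bases and stops before the last bases printed, while that of NEAT1 runs to the end. The short form ends at base 3716 of the 22743 bases of the long form, so 19027 bases belong to the long form alone. GENCODE 29 lists 8 NEAT1 transcripts, of 512 to 22743 bases, and 17 MALAT1 transcripts, of 132 to 8708 bases. The deposited values are per gene, so how NEAT1 reads divided between the forms was not analysed here.

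NEAT1, the scaffold RNA of paraspeckles (ENSG00000245532.5, a lincRNA at chr11:65422774-65445540, plus strand), was the gene with the widest gap between groups among the 7. It had 527.16, 492.21 and 581 TPM in H182, against 46.85, 54.31 and 60.63 TPM in DMSO. Every H182 library was far above every DMSO library. The means were 533 ± 44.7 TPM in H182 and 53.9 ± 6.90 TPM in DMSO (SD, n = 3 each), a 9.89-fold ratio, or a change of 3.29 on the log2(TPM + 1) scale (SE 0.090). Of all 12294 fitted genes, 18 had a larger change on this scale, which understates changes of low genes. SESN2 and NR4A3, with ratios of means of 10.9-fold and 40.1-fold, changed less on it, by 3.28 and 3.24. Among 405 fitted long noncoding genes NEAT1 had the largest change on this scale, and its mean level ranked 2 in H182 and 11 in DMSO. Of 21 other long noncoding RNAs listed below, only 9 were matched to a row. These ranks therefore cover only the genes with a fitted row, and only RNA captured by poly-A selection. These were bulk lysates, so a change in RNA per cell and a change in how many cells made it cannot be told apart.

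MALAT1, the speckle-associated RNA (ENSG00000251562.7, a lincRNA at chr11:65497688-65506516, plus strand), was also higher, by a smaller factor. It had 66.47, 63.6 and 69.96 TPM in H182, against 30.24, 31.52 and 30.88 TPM in DMSO. The groups did not overlap, and the coefficient of variation was 4.78% in H182 and 2.07% in DMSO. The means were 66.7 ± 3.19 TPM in H182 and 30.9 ± 0.640 TPM in DMSO (SD, n = 3 each), a 2.16-fold ratio and a log2 change of 1.09 (SE 0.056). On the log2(TPM + 1) scale its change ranked 5 among the 405 long noncoding genes, and 144 of all fitted genes had a larger one.

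**Figure D1:**
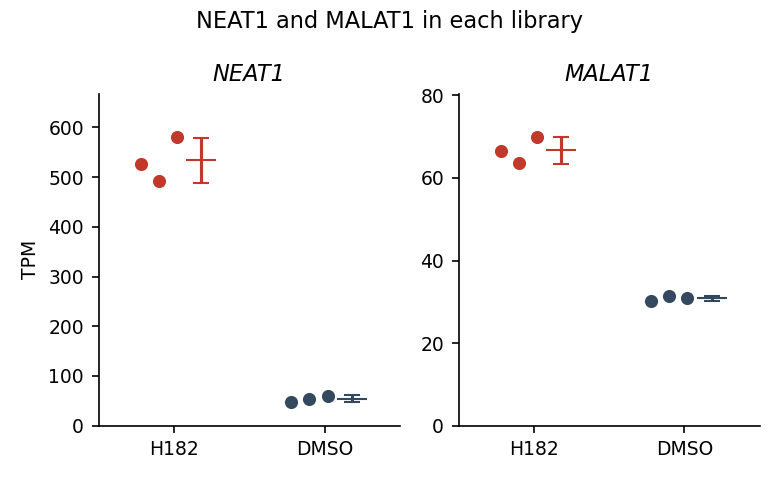
TPM of NEAT1 and MALAT1 (y axes, from 0, on different scales) in 3 H182 and 3 DMSO libraries, with points for libraries and a bar for the mean ± SD. NEAT1 lies between 492.21 and 581 TPM in H182 and between 46.85 and 60.63 TPM in DMSO, and MALAT1 between 63.6 and 69.96 TPM in H182 and between 30.24 and 31.52 TPM in DMSO.

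The ratio of these RNAs within a library, which does not depend on how libraries are scaled, also differed. NEAT1 over MALAT1 was 7.93, 7.74 and 8.30 in the H182 libraries, against 1.55, 1.72 and 1.96 in the DMSO libraries. The mean ratio was 7.99 ± 0.288 in H182 and 1.75 ± 0.208 in DMSO (SD, n = 3 each). Together the RNAs took 0.0600 ± 0.00479% of all TPM in H182 and 0.00848 ± 0.000726% in DMSO. These ratios and shares hold for RNA captured by poly-A selection, and capture of forms without a tail was not tested.

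The DBHS genes stayed close to their DMSO levels. NONO, which pairs with SFPQ or PSPC1 in the paraspeckle core (chrX:71283192-71301168, plus strand), had 614.8, 599.74 and 644.05 TPM in H182, against 628.32, 688.05 and 657.42 TPM in DMSO. The groups overlapped, with means of 619.5 ± 22.5 TPM in H182 and 658 ± 29.9 TPM in DMSO (SD, n = 3 each). Its log2 change of -0.09 (SE 0.043) equalled the median of all fitted genes in TPM, -0.09. With median-of-ratios scaling, which sets the median gene to 0.00, NONO changed by 0.02, and with quantile normalization by -0.16, so the sign depended on the scaling. NONO was called lower with quantile normalization.

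SFPQ, a splicing factor and transcription regulator that NEAT1 can draw into paraspeckles (chr1:35176378-35193148, minus strand), had 465.51, 457.95 and 455.25 TPM in H182, against 437.81, 478.28 and 462.5 TPM in DMSO. The H182 values lay inside the DMSO range. The means were 459.6 ± 5.32 TPM in H182 and 459.5 ± 20.4 TPM in DMSO (SD, n = 3 each), with a log2 change of 0.00 (SE 0.039). With median-of-ratios scaling the means were 477 ± 14.8 in H182 and 443 ± 17.1 in DMSO, a log2 change of 0.10, and the groups did not overlap.

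PSPC1, the least abundant DBHS gene here and one that paraspeckles can form without (chr13:19674752-19783019, minus strand), had 75.33, 78.34 and 80.55 TPM in H182, against 81.32, 76.8 and 82.91 TPM in DMSO. The groups overlapped, with means of 78.1 ± 2.62 TPM in H182 and 80.3 ± 3.17 TPM in DMSO (SD, n = 3 each). The log2 change was -0.04 (SE 0.050), and 0.06 with median-of-ratios scaling.

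The make-up of the DBHS family differed little between groups, though the shares of NONO and of SFPQ did not overlap between them. By library NONO held 52.8 to 54.6% in H182 and 54.7 to 55.3% in DMSO. SFPQ held 38.6 to 40.3% in H182 and 38.2 to 38.5% in DMSO, while PSPC1 overlapped. NONO made up 53.5 ± 0.941% of the family's TPM in H182 and 54.9 ± 0.374% in DMSO, SFPQ 39.7 ± 0.988% in H182 and 38.4 ± 0.178% in DMSO, and PSPC1 6.75 ± 0.201% in H182 and 6.72 ± 0.479% in DMSO (SD, n = 3 each). Their sum was 1157 ± 22.0 TPM in H182 and 1198 ± 48.0 TPM in DMSO. Against that sum, NEAT1 stood at 0.456, 0.433 and 0.492 in the H182 libraries and at 0.0408, 0.0437 and 0.0504 in the DMSO libraries. NEAT1 per gene, with its short and long forms not separated, was thus higher relative to the DBHS mRNAs in every treated library. The ratio rose 10.2-fold on the means.

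**Figure D2:**
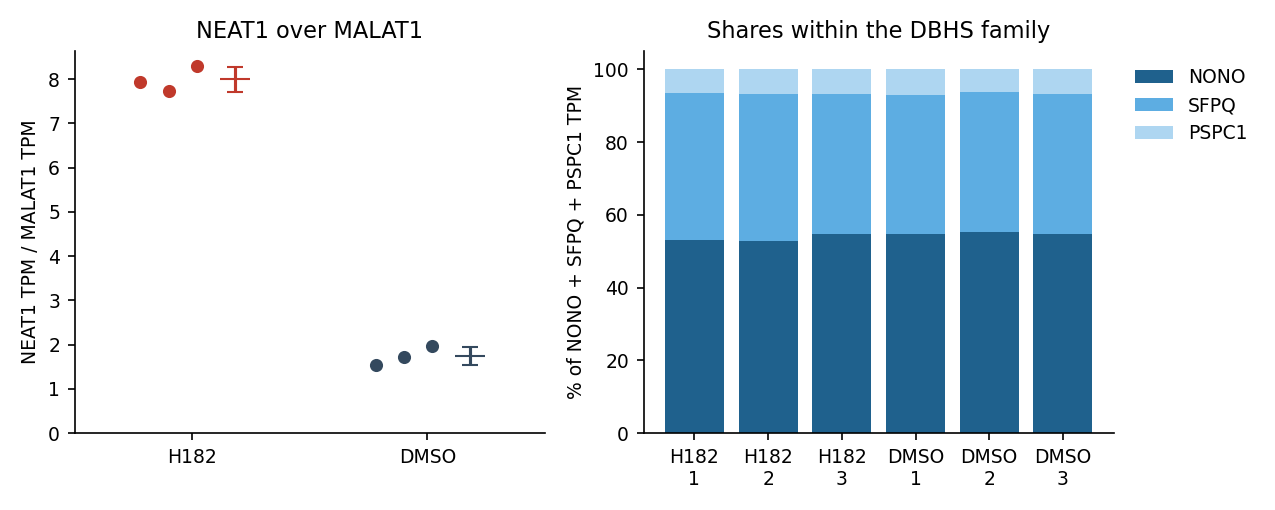
Left, NEAT1 TPM over MALAT1 TPM (y axis, from 0) by group, with points for libraries and a bar for the mean ± SD. Right, the share (%) of NONO, SFPQ and PSPC1 in their summed TPM in each library. The RNA ratio is 7.74 to 8.30 in H182 and 1.55 to 1.96 in DMSO, while NONO holds 52.8 to 54.6% of the family in H182 and 54.7 to 55.3% in DMSO.

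RBM14, a coactivator with a prion-like domain that paraspeckle assembly needs (ENSG00000239306.4, chr11:66616582-66627347, plus strand), was higher in treated cells. It had 120.39, 124.76 and 134.96 TPM in H182, against 97.49, 95.6 and 99.43 TPM in DMSO. Every H182 library was above every DMSO library, with means of 127 ± 7.48 TPM in H182 and 97.5 ± 1.92 TPM in DMSO (SD, n = 3 each), a 1.30-fold ratio and a log2 change of 0.37 (SE 0.051). RBM14 shares exons with the readthrough gene RBM14-RBM4, which was at 6.85 ± 1.75 TPM in H182 and 9.90 ± 4.45 TPM in DMSO. The downstream gene RBM4 was at 119 ± 2.08 TPM in H182 and 112 ± 3.45 TPM in DMSO. How reads were divided among these overlapping genes was not tested.

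TARDBP, which encodes TDP-43, an RNA-binding protein that also limits its own mRNA (ENSG00000120948.15, chr1:11012344-11026420, plus strand), was lower in treated cells. It had 177.57, 175.26 and 177.53 TPM in H182, against 230.81, 244.34 and 243.49 TPM in DMSO. The H182 libraries were nearly equal to each other and all below the DMSO libraries. The means were 177 ± 1.32 TPM in H182 and 239.5 ± 7.58 TPM in DMSO (SD, n = 3 each), a ratio of 0.738 and a log2 change of -0.44 (SE 0.038), or -0.33 with median-of-ratios scaling. Only 4.38% of fitted genes had a more negative change. RBM14 over TARDBP was 0.717 ± 0.0413 in H182 and 0.407 ± 0.0156 in DMSO.

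**Figure D3:**
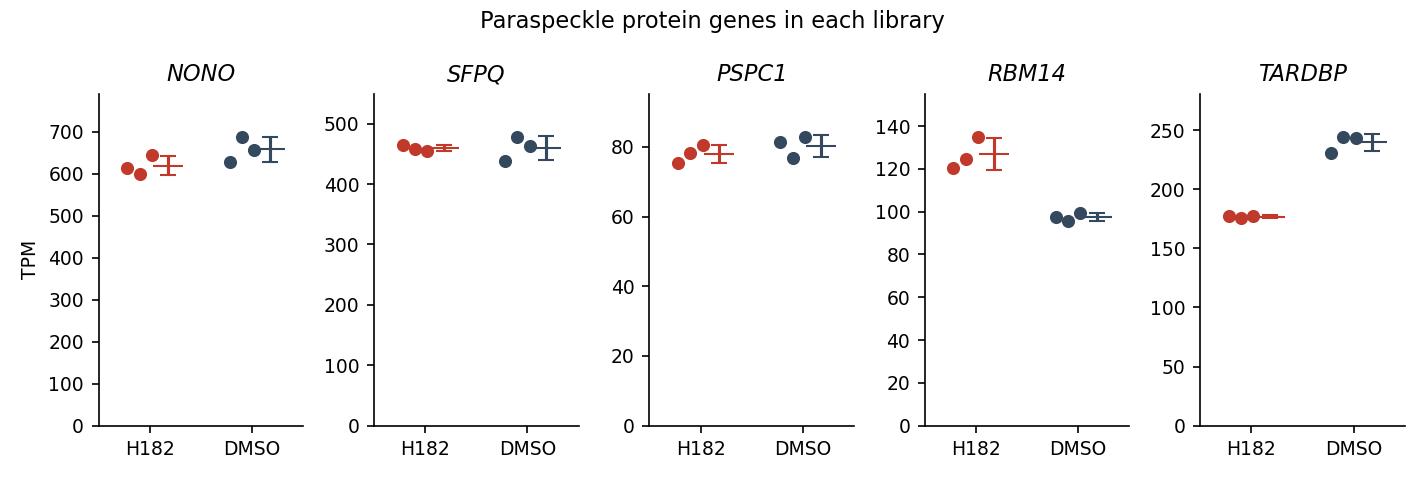
TPM of the 5 protein genes (y axes, from 0, on different scales) in 3 H182 and 3 DMSO libraries, with points for libraries and a bar for the mean ± SD. NONO, SFPQ and PSPC1 overlap between groups, RBM14 is at 120.39 to 134.96 TPM in H182 and 95.6 to 99.43 TPM in DMSO, and TARDBP is at 175.26 to 177.57 TPM in H182 and 230.81 to 244.34 TPM in DMSO.

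By level in TPM, the order in H182 was NONO, NEAT1, SFPQ, TARDBP, RBM14, PSPC1 and MALAT1. In DMSO it was NONO, SFPQ, TARDBP, RBM14, PSPC1, NEAT1 and MALAT1. Neighbours in either order did not overlap between libraries of the group. NEAT1 was thus below all 5 protein genes in DMSO and above SFPQ in H182, and the other genes kept their order. Among all gene rows NEAT1 ranked between 238 and 281 by TPM in the H182 libraries and between 3147 and 3878 in the DMSO libraries. These are orders of TPM in poly-A selected libraries. How fully MALAT1 and the long NEAT1 form, which lack a poly-A tail, were captured was not tested.

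Of the 7 genes, limma called 3 higher (NEAT1, MALAT1, RBM14) and 1 lower (TARDBP) at an adjusted p under 0.05, and 3 were not called. The same count was found with median-of-ratios scaling, while NONO was also called lower with quantile normalization. Over all fitted genes 24.0% were called in TPM, 5.30% higher and 18.7% lower, and 14.7% with median-of-ratios scaling, 7.91% higher and 6.79% lower. At least 2-fold higher and called were NEAT1 and MALAT1 and 1.30% of all fitted genes. Groups did not overlap in TPM for 4 of the 7, against 41.4% of all fitted genes (8.67% higher, 32.7% lower). With median-of-ratios scaling they did not overlap for 5 of the 7, against 33.3% of all fitted genes (16.4% higher, 16.9% lower). The median log2 change of the 7 was 0.00, and that of all fitted genes -0.09. Because the genes were chosen on this contrast, nothing is read from these counts.

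**Figure D4:**
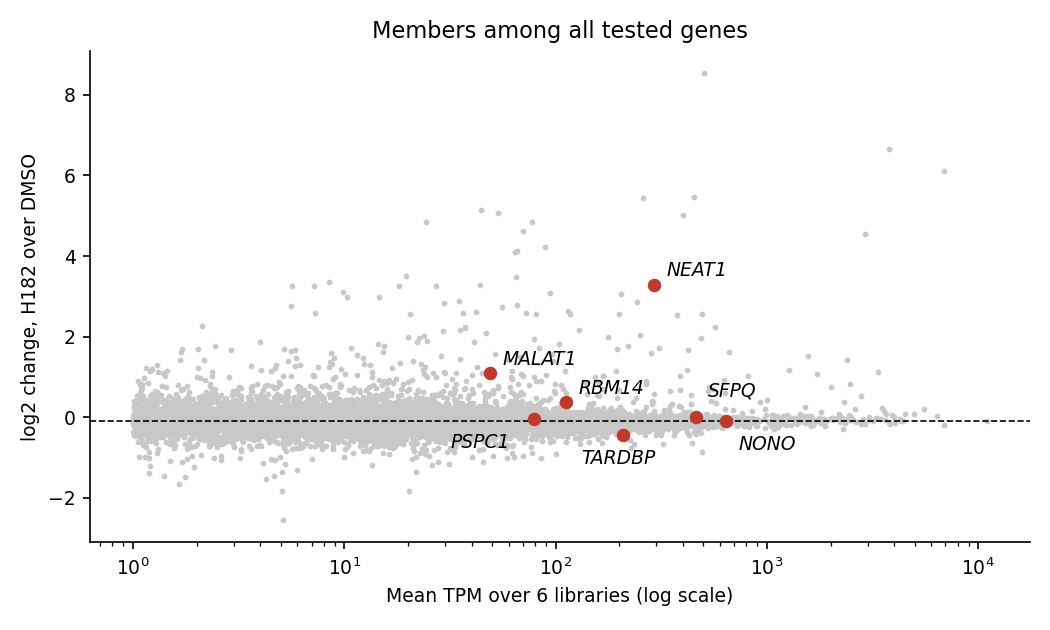
Log2 change of H182 over DMSO (y axis) against mean TPM over 6 libraries (x axis, log scale) for 12294 fitted genes in grey, with the 7 described genes in red. The dashed line is the median of all genes, -0.09; NEAT1 at 3.29 and MALAT1 at 1.09 lie above the bulk of genes of their level, TARDBP at -0.44 below it, and NONO, SFPQ and PSPC1 near the line.

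NEAT1 and MALAT1 lie 52147 bp apart, so the genes around them were examined next. Of 16 listed neighbours on chromosome 11, 14 were fitted: CDC42EP2 rose, 5 fell and 8 were not called, with a median log2 change of -0.18. Of all fitted genes 5.30% rose and 18.7% fell, with a median of -0.09. CDC42EP2, an effector of the small GTPase CDC42, had 31.51, 31 and 33.54 TPM in H182, against 21.16, 21.92 and 21.91 TPM in DMSO (log2 change 0.54, SE 0.063, limma adjusted p = 0.000304). None of the neighbours changed by 2-fold. The closest listed upstream gene, FRMD8, averaged 19.9 ± 3.47 TPM in H182 and 24.5 ± 0.968 TPM in DMSO (limma adjusted p = 0.0875).

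The 5 falls near these RNAs were SLC25A45, LTBP3, FAM89B, PCNX3 and RELA, an NF-kappaB subunit gene, which had 112.56, 108.24 and 105.44 TPM in H182, against 127.82, 145.66 and 115.94 TPM in DMSO (log2 change -0.25, limma adjusted p = 0.0389). None of them was called lower with median-of-ratios scaling, with which CDC42EP2 and DPF2 were called higher. With that scaling 7.91% of all fitted genes were called higher and 6.79% lower. The count of 6 called neighbours became 1 without H182 replicate 1, 2 without H182 replicate 2, 3 without DMSO replicate 1, 1 without DMSO replicate 2 and 2 without DMSO replicate 3, and CDC42EP2 was called higher each time. RELA was not called without H182 replicate 1, 2 or 3 or without DMSO replicate 1 or 2, and FAM89B only kept its call without H182 replicate 3. PCNX3 was not called without H182 replicate 1 or 2 or without DMSO replicate 2 or 3. In the interval between NEAT1 and MALAT1, a pseudogene looked up after the values were seen (CMB9-22P13.1) had 4.64, 4.52 and 3.04 TPM in H182, against 3.78, 2.96 and 4.95 TPM in DMSO, and these overlapped.

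**Figure D5:**
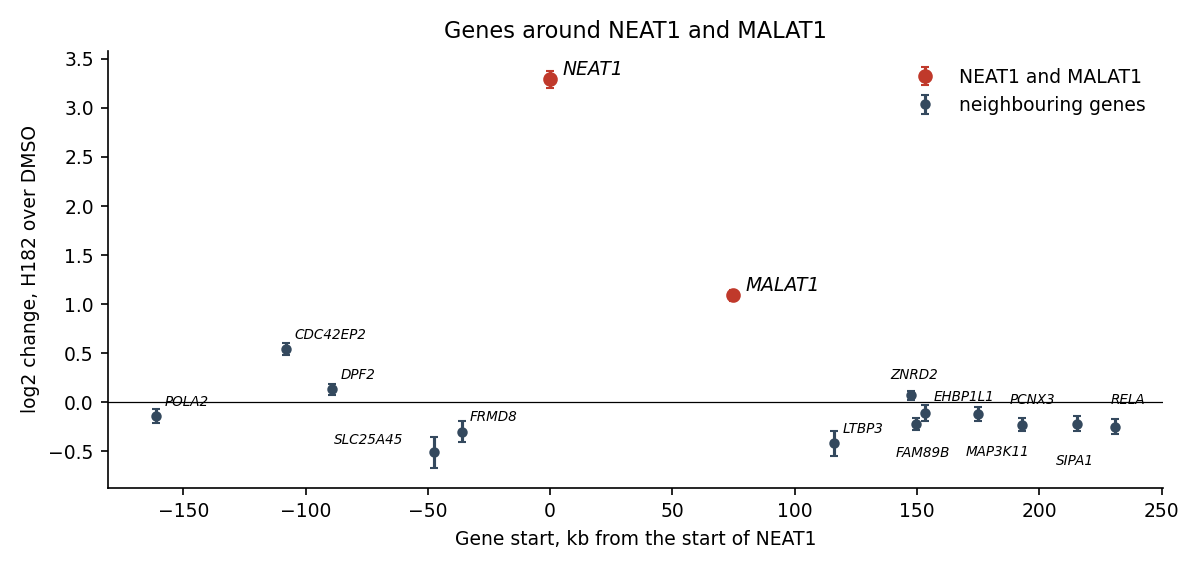
Log2 change of H182 over DMSO (y axis, error bars ± SE) against gene start in kb from the start of NEAT1 (x axis) for NEAT1 and MALAT1 (red) and 13 of the fitted neighbours (dark blue). NEAT1 at 3.29 and MALAT1, 74.9 kb downstream, at 1.09 stand above the neighbours, which lie between -0.51 and 0.54.

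Other proteins found in paraspeckles were described from a list without the 5 genes above. Of 35 listed, 31 were fitted: none rose, 14 fell and 17 were not called, with a median log2 change of -0.15. Of all fitted genes 5.30% rose and 18.7% fell, with a median of -0.09. With median-of-ratios scaling 1 was higher, 7 lower and 23 not called, with a median of -0.05, beside 7.91% of all fitted genes higher and 6.79% lower. HNRNPF, a splicing regulator, averaged 245 ± 10.3 TPM in H182 and 311 ± 8.66 TPM in DMSO (log2 change -0.34, limma adjusted p = 0.000470). HNRNPA1, an abundant splicing repressor, averaged 1741 ± 12.5 TPM in H182 and 2034 ± 25.5 TPM in DMSO (log2 change -0.22, limma adjusted p = 0.000539). TOE1, a deadenylase that trims the ends of small nuclear RNAs, averaged 22.0 ± 2.07 TPM in H182 and 32.8 ± 2.83 TPM in DMSO (log2 change -0.56, limma adjusted p = 0.00198). HNRNPUL1 changed by -0.22 (limma adjusted p = 0.00219), and all 4 also passed with median-of-ratios scaling.

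The list also holds genes that, like TARDBP, bear on which NEAT1 form is made. HNRNPK, which favours the long form, averaged 837 ± 25.7 TPM in H182 and 923 ± 28.6 TPM in DMSO (log2 change -0.14, limma adjusted p = 0.0229). NUDT21, a cleavage factor subunit that promotes the short form, averaged 108 ± 6.36 TPM in H182 and 121 ± 5.31 TPM in DMSO (log2 change -0.17, limma adjusted p = 0.0493). Neither was called with median-of-ratios scaling, where the adjusted p-values were 0.518 and 0.404. CPSF7, another cleavage factor subunit, averaged 85.6 ± 5.81 TPM in H182 and 104 ± 2.32 TPM in DMSO (log2 change -0.28, limma adjusted p = 0.00633, and 0.0377 with median-of-ratios scaling). These 3 genes were chosen for their known roles after their values were seen.

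Among 9 transcription factors reported to act on NEAT1 in human cells, 8 were fitted, none rose and 2 fell, with a median log2 change of -0.08. Both are near the values of all fitted genes, of which 18.7% fell with a median of -0.09. RUNX1 changed by -0.30 (limma adjusted p = 0.00973) and was not called with median-of-ratios scaling, with which 1 of the 8 was called higher (EPAS1) and 1 lower. Of all fitted genes 7.91% were called higher and 6.79% lower with that scaling. HSF1, the heat shock factor, averaged 130.4 ± 4.93 TPM in H182 and 135 ± 7.81 TPM in DMSO (limma adjusted p = 0.549). The mRNA level says nothing of a factor's activity.

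Promoter windows of 300 bases, 250 before to 50 after the start, were matched in the RefSeq table (GRCh38.p14) for 5 of the 7 genes, with 6 windows in all since MALAT1 has 2. NEAT1 and SFPQ were not matched. The heat shock element (TTC, GAA and TTC, or GAA, TTC and GAA, with 2 free bases between the blocks) is in 0.490% of 35116 promoters, the STAT site (TTCNNNGAA) in 7.66% and the cyclic AMP response element (TGACGTCA) in 1.85%, on either strand. The free spacing of the STAT site, 3 bases, differs from that of the heat shock element. None of the 6 windows held any of these letters. That says only that the letters are not in those windows.

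Nuclear speckle proteins share a compartment with MALAT1. Of 12 listed and fitted, none rose, 9 fell and 3 were not called, with a median log2 change of -0.29, where 18.7% of all fitted genes fell and their median was -0.09. With median-of-ratios scaling 6 fell, none rose and the median was -0.18, where 6.79% of all fitted genes fell. BCLAF1 had 104.85, 100.88 and 101.11 TPM in H182, against 135.86, 133.51 and 134.88 TPM in DMSO (log2 change -0.39, limma adjusted p = 0.000124). SRRM1, a splicing coactivator, averaged 134 ± 2.79 TPM in H182 and 175 ± 4.54 TPM in DMSO (limma adjusted p = 0.000174). The SR proteins SRSF1 and SRSF2 changed by -0.30 and -0.44 (limma adjusted p = 0.000340 and 0.000622).

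Genes for MALAT1 maturation and binding were mostly not called. Of 14 fitted, none rose and 4 fell (RPP25, ELAC2, RPP38 and POP7), with a median log2 change of -0.08, against 18.7% lower and a median of -0.09 for all fitted genes. With median-of-ratios scaling 2 fell and the median was 0.03, against 6.79% lower and a median of 0.00. RPP25, an RNase P subunit, averaged 14.6 ± 0.556 TPM in H182 and 22.0 ± 0.892 TPM in DMSO (log2 change -0.56, limma adjusted p = 0.000616). ELAC2, the RNase Z that trims the tRNA-like RNA cut from MALAT1, averaged 115 ± 3.93 TPM in H182 and 140 ± 6.84 TPM in DMSO (log2 change -0.28, limma adjusted p = 0.00338). POP7 (-0.22, limma adjusted p = 0.0175) was not called without DMSO replicate 1 or DMSO replicate 3. It was also not called with median-of-ratios scaling (limma adjusted p = 0.174), with quantile normalization or without a mean-variance trend. RPP38 was not called with median-of-ratios scaling (limma adjusted p = 0.0519). METTL16, which binds the MALAT1 triple helix, was at 15.6 ± 2.44 TPM in H182 and 15.9 ± 2.09 TPM in DMSO.

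Other long noncoding RNAs were described from a further list, and none of them changed by 2-fold. Of 21 listed, 9 were matched and 8 fitted: MIR22HG rose, NORAD fell and 6 were not called, with a median log2 change of 0.10. MIR22HG, the host of a microRNA, had 36, 37.16 and 34.33 TPM in H182, against 27.06, 24.26 and 24.74 TPM in DMSO (log2 change 0.48, limma adjusted p = 0.000893). NORAD, a cytoplasmic RNA that binds Pumilio proteins, averaged 89.7 ± 4.67 TPM in H182 and 103 ± 1.47 TPM in DMSO (log2 change -0.19, limma adjusted p = 0.0190). The call of NORAD was lost with median-of-ratios scaling and without H182 replicate 1, H182 replicate 2 or DMSO replicate 2. With median-of-ratios scaling MIR22HG and PVT1 were called higher, beside 7.91% of all fitted genes. The count called became 1 without H182 replicate 1 and without H182 replicate 2. Among all 405 fitted long noncoding genes 23 (5.68%) rose and 35 (8.64%) fell.

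Stress granule proteins, markers of a cytoplasmic body that shares RNA-binding proteins with paraspeckles, were described next. Of 10 fitted, none rose, 5 fell and 5 were not called, with a median log2 change of -0.18, and 4 fell with median-of-ratios scaling. The share of all fitted genes that fell was 18.7% in TPM, with a median of -0.09, and 6.79% with median-of-ratios scaling. CAPRIN1 averaged 264 ± 13.3 TPM in H182 and 323 ± 9.42 TPM in DMSO (log2 change -0.29, limma adjusted p = 0.00171). The granule core genes G3BP1 and G3BP2 changed by -0.24 and -0.26 (limma adjusted p = 0.00266 and 0.00213), and DDX3X, an RNA helicase, by -0.37 (limma adjusted p = 0.00584).

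The genes with the profile most like that of NEAT1 were sought among 10087 others with a mean of at least 5 TPM, by the root mean square difference of log2(TPM + 1) over the 6 libraries, each gene centred on its own DMSO mean. All share the same libraries and the same split between groups, so this is a description. The 5 nearest were SESN2, a stress-induced restraint of mTORC1 (0.0956), TNFSF9, the ligand of 4-1BB (0.102), CDKN1C, a cyclin-dependent kinase inhibitor (0.124), NR4A3, an orphan nuclear receptor (0.185), and EGR1, an immediate early transcription factor (0.199). SESN2 averaged 80.2 ± 3.21 TPM in H182 and 7.39 ± 0.429 TPM in DMSO, so NEAT1 was the more abundant transcript at a like fold. NR4A3 averaged 11.1 ± 0.522 TPM in H182 and 0.277 ± 0.0814 TPM in DMSO. Its likeness on this scale rests on the pseudocount, since its ratio of means was 40.1-fold against 9.89-fold for NEAT1.

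The 5 genes nearest to MALAT1 were HSPA8, the constitutive cytosolic HSP70 (0.0356), CHMP1B, an ESCRT-III subunit (0.0477), EFNB1, the gene of ephrin-B1 (0.0497), DNAJA1, an HSP40 cochaperone (0.0541), and SERTAD1, a regulator of cyclin-dependent kinase activity (0.0553). HSPA8 averaged 4592 ± 86.1 TPM in H182 and 2123 ± 58.2 TPM in DMSO, at the same 2.16-fold ratio as MALAT1. DNAJA1 averaged 519.6 ± 9.97 TPM in H182 and 254 ± 5.79 TPM in DMSO. EFNB1 was far less abundant, at 9.95 ± 0.354 TPM in H182 and 4.29 ± 0.243 TPM in DMSO.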

How the data were processed

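RNA of 6 MDA-MB-231 libraries was sequenced after poly-A selection with a stranded kit, per the labels' protocols. STAR 2.5.0, RSEM 1.2.25 and GRCh38 are named in the submitters' processing notes. Annotation and strand setting: not given in the sources used here. What the authors deposited is TPM per gene, rounded to 2 decimals, with library sums of 999999 to 1000000. Spike-in rows (92, all at 0) and 24 second rows of genes shared by X and Y were left out.

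H182 was compared with DMSO by limma 3.58.1 (R 4.3.3) on log2(TPM + 1), for genes whose 6 libraries averaged 1 TPM or more, with a mean-variance trend, two-sided, Benjamini-Hochberg adjustment over 12294 genes and a threshold of 0.05. The script was first tested on simulated data. Folds on this scale understate changes of low genes. TPM are shares of a total, and a large rise lowers the share left to other genes, so results under median-of-ratios scaling stand beside them. Coordinates come from GENCODE 29, and figures from matplotlib 3.10.9.

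Genes and lists were chosen with earlier results of these data known. Named genes were the 7, up to 4 passing genes per list with the lowest adjusted p (else the 2 with the lowest p), neighbours on the chromosome, and the 5 nearest profiles; HNRNPK, NUDT21, CPSF7, HSF1, EPAS1, METTL16 and PVT1 were chosen after their values were seen. Alternatives covered pseudocount, filter, scaling, variance model, weights, replicate block, threshold and leaving out each library. Some genes of the lists are counted but not reported here by name.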

Additional observations from a re-analysis of the deposited data

How the results depend on the processing

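The 7 genes were chosen on this contrast, so their values under the alternatives are a description and no support for a difference. NONO changed by -0.16 with quantile normalization and was called lower there. With median-of-ratios scaling the log2 changes were 1.19 (MALAT1), 0.02 (NONO), 0.10 (SFPQ), 0.06 (PSPC1), -0.33 (TARDBP) and 0.48 (RBM14). With quantile normalization they were 1.16 (MALAT1), 0.03 (PSPC1), -0.36 (TARDBP) and 0.46 (RBM14).

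Of all genes, 2955 were called, 651 higher and 2304 lower (78.0% lower). With median-of-ratios scaling 1807 were called, 835 of them lower (46.2% lower), with quantile normalization 1261 were lower, and at an adjusted p under 0.01, 1436 were called and 998 were lower. Leaving out 1 library gave 1947 to 2758 called and 1396 to 2205 lower, with 1396 without DMSO replicate 2 and 1478 without H182 replicate 2. Called members of the paraspeckle protein list numbered 8 with median-of-ratios scaling, 9 without a mean-variance trend and 9 at an adjusted p under 0.01. The MALAT1 maturation list had 2 with median-of-ratios scaling. The noncoding list had 1 with quantile normalization, without a trend and at 0.01, and 1 to 2 with a library left out. The neighbour list had 2 with either scaling, 3 with the replicate block, 1 at 0.01, and 1 to 5 with a library left out. The causes were not tested, beyond the stricter threshold and fewer samples of those alternatives.

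Same-numbered libraries did not deviate together (correlation across genes of -0.0359 to 0.00245), so the numbers were not taken to pair samples. With the replicate block 2684 genes were called, and of 24 named genes only FAM89B was no longer called. None of these 24 changed sign in any of the 16 alternatives. TPM gives no read depth, so no limit of detection can be stated.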
